A study of Mus musculus with 14 samples.

Results

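Arachidonic acid, a fatty acid held in membrane phospholipids, is turned into signalling lipids called eicosanoids along several enzyme routes. In the lipoxygenase route, the enzyme encoded by Alox5 oxygenates free arachidonic acid at the start of leukotriene synthesis, the membrane protein encoded by Alox5ap presents the fatty acid to it, and Ltc4s encodes the synthase of the cysteinyl leukotrienes. In the cyclooxygenase route, Ptgs1 and Ptgs2 encode the enzymes that form prostaglandin H, which the product of Ptges turns into prostaglandin E and the product of Ptgds into prostaglandin D. Ptgds is also a secreted carrier of small lipophilic molecules, is one of the abundant proteins of the cerebrospinal fluid, and is known in the brain from oligodendrocytes (OLs), the leptomeninges and the choroid plexus.

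These 7 eicosanoid genes, out of 23427 in the table, were taken by symbol. They were selected on measured values, namely Alox5 being lower after both knockdowns than in the Day3 controls and Ptgds being much higher at Day3 than at Day0, so those values are given as a description with no test. The libraries behind them also enter the comparisons that were tested.

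The cells were mouse primary oligodendrocyte precursor cells (OPCs) of the C57BL/6J background, prepared from the pooled cortices of 3 pups at postnatal day 7 by immunopanning, in which other cell types are first removed on coated dishes and OPCs are then captured with an antibody against Pdgfra. Day0 and Day3 are the days in the labels, which do not mention differentiation. By the methods, OPCs were differentiated by removing the growth factor PDGF-AA and adding thyroid hormone. The methods do not state this step for transfected cultures. The change from Day0 to non-treated Day3 is called differentiation below. For transfected cultures the methods give the harvest as 3 days after transfection. All 14 libraries came from such cultures, in 7 groups of 2. The Day3 groups were non-treated cells, mock-transfected cells (mock), cells given one of the non-targeting siRNAs NC siRNA #1 and NC siRNA #2, and cells given an siRNA against Secisbp2l (siSbp2l) or against Pdgfra (siPdgfra). Whether an siRNA group received 1 siRNA or a pool is not given in the sources used here, and every knockdown comparison uses the same 4 control groups.

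mRNA-seq levels are in FPKM, which divides the fragments of a gene by its exon length and by the depth of its library. Depths recovered from the steps between low values ran from 6560825 fragments (NC siRNA #2 replicate 2) to 31621281 (Day0 replicate 1). Between the 2 replicates of a group, the log2 difference over 11874 genes had an SD of 0.457 in the non-treated group and 0.148 to 0.2 in the other groups. The targeted mRNAs matched the labels: Secisbp2l was at 3.87 FPKM ± 0.062 (SD, n = 2) in siSbp2l against 138 to 249.8 in the control groups, and Pdgfra at 2.996 FPKM ± 0.427 in siPdgfra against 32.5 to 67.4.

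The starts of Alox5 and Ptgds are shown because these were the only members above 1 FPKM in at least 2 libraries. Alox5 lies on chromosome 6 (mm10, chr6:116410071-116461178, minus strand, 2827 bases of exon) and Ptgds on chromosome 2 (chr2:25466712-25469749, minus strand, 805 bases of exon). The RefSeq promoters cover 300 bases (GRCm38.p6, 250 before and 50 after the annotated start, written 5′ to 3′ on the strand of the gene), and 6 of the 7 members had one. Capitals mark a GC box (GGGCGG) or an E-box (CANNTG).
Alox5, chr6:116461129-116461428, minus strand: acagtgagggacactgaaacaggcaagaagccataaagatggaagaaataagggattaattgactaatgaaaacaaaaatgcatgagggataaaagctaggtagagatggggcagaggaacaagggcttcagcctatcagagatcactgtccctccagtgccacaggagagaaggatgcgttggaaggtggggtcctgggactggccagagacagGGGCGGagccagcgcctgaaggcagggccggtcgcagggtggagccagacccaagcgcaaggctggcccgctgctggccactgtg
Ptgds, chr2:25469700-25469999, minus strand: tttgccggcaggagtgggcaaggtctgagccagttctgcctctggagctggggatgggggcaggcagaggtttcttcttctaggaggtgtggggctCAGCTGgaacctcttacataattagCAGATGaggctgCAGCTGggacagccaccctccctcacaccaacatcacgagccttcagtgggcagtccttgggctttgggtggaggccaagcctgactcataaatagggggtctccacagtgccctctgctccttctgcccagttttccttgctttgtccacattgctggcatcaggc
The Alox5 window held 1 GC box, 35 bases before the start, and no E-box, and 55.7% of its bases were G or C. The Ptgds window held 3 E-boxes, 154, 129 and 117 bases before the start, and no GC box, and 57.7% of its bases were G or C. Neither window held the nuclear receptor half-site AGGTCA, the TCF/LEF core CTTTGA or the TATA box TATAAA, searched on both strands. Of the 32851 promoters of the same length, 35.7% held a GC box, 72.3% an E-box, 16.3% the half-site, 16.0% the TCF/LEF core and 13.6% the TATA box, so each motif found here was common.

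Alox5 was close to absent in OPCs and present in every Day3 control culture. At Day0 it was at 0.0671 and 0.0629 FPKM, which stand for 6 and 4 fragments. It was at 24.4 and 18.0 FPKM in the non-treated libraries, 17.9 and 16.6 in mock, 22.4 and 23.1 in NC siRNA #1, and 9.87 and 10.4 in NC siRNA #2. The lowest control library thus lay far above both Day0 libraries. Non-treated cells were higher than Day0 by 4.37 on the log2(FPKM + 1) scale. Alox5 reached 1 FPKM only in the 8 control libraries, which also belong to the values that chose it, so this difference is a description with no test. In the same comparison 26.6% of all genes tested were called, that is, changed by at least 2-fold with an adjusted p under 0.05. On the linear scale the ratio of the means was 326, and it ran from 156 (NC siRNA #2) to 350 (NC siRNA #1) over the 4 control groups.

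After either knockdown Alox5 rested on 23 to 59 fragments a library. In siSbp2l it was at 0.506 and 0.457 FPKM (29 and 28 fragments), and in siPdgfra at 0.975 and 0.407 (59 and 23 fragments). The lowest control library was 10.1-fold above the highest knockdown library, so the groups did not overlap. This separation belongs to the values that chose Alox5, and the share of all genes separated in this way was not counted. The group means were 97.3% (siSbp2l) and 96.1% (siPdgfra) below the mean of the 4 controls, or 37.1-fold and 25.8-fold lower. These ratios depended on the control, from 21.1-fold (NC siRNA #2) to 47.3-fold (NC siRNA #1) for siSbp2l and from 14.7-fold to 32.9-fold for siPdgfra.

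The level of Alox5 did not differ detectably between the knockdowns. The difference, siSbp2l minus siPdgfra, was −0.17 on the log2(FPKM + 1) scale (95% interval −0.55 to 0.21, limma adjusted p = 0.433), with 13.7% of all genes called. The siSbp2l libraries lay between the siPdgfra ones. Both knockdowns stayed above Day0, by 7.40-fold in siSbp2l and 10.6-fold in siPdgfra on the linear scale. On the log2(FPKM + 1) scale these differences were 0.48 (SE 0.16, limma adjusted p = 0.0236) and 0.65 (SE 0.16, limma adjusted p = 0.00436), both under 2-fold and so not called, in comparisons where 22.8% and 27.7% of genes were. With a pseudocount of 0.1 in place of 1 they were 1.82 and 2.16 and were called. Each of these comparisons uses knockdown values that also chose Alox5. Alox5 was under the filter of 1 FPKM in every library of both knockdowns and of Day0. The adjusted p-values of this paragraph are therefore no independent evidence.

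Alox5 also differed between the non-targeting siRNAs. NC siRNA #2 had 10.1 FPKM ± 0.375 (SD, n = 2) and NC siRNA #1 22.7 ± 0.468, a difference of −1.09 (SE 0.17, limma adjusted p = 0.00144), where 3.99% of genes were called. With a pseudocount of 5 it was −0.87 and no longer called. Against mock, NC siRNA #2 differed by −0.71 (SE 0.17, limma adjusted p = 0.0209), under 2-fold, and NC siRNA #1 by 0.38 (SE 0.17, limma adjusted p = 0.154). Of all genes, 2.02% and 3.19% were called in these comparisons. Mock and non-treated differed by −0.27 (95% interval −0.65 to 0.12, limma adjusted p = 0.432), in a comparison that called 0.00858% of genes. In order of its means, Alox5 was thus highest in NC siRNA #1 and non-treated, whose libraries overlapped, followed by mock, NC siRNA #2, siPdgfra and siSbp2l (again overlapping) and Day0.

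**Figure D1:**
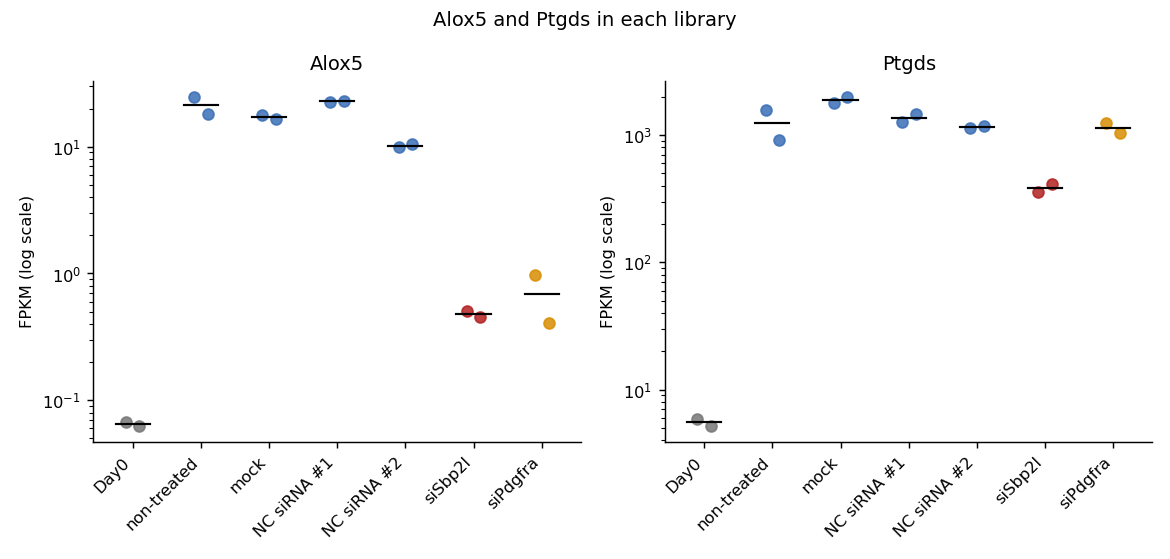
FPKM of Alox5 (left) and Ptgds (right) in each of the 14 libraries on a log axis, with a point for each library and a line at the mean of each group of 2. Alox5 went from 9.87 or more in the control libraries to 0.975 or less in both knockdowns, while Ptgds was low among Day3 groups only in siSbp2l.

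Ptgds ranked between 7 and 14 among 23427 genes by mean FPKM in the Day3 control groups. It ranked 12 in siPdgfra, 78 in siSbp2l and 8263 at Day0. At Day0 it was at 5.85 and 5.19 FPKM. The non-treated libraries had 1563 and 912 FPKM, mock 1772 and 1974, NC siRNA #1 1255 and 1468, and NC siRNA #2 1139 and 1169. All Day3 control libraries lay over 100-fold above Day0, with group means 209-fold (NC siRNA #2) to 339-fold (mock) higher. In siSbp2l it was at 359 and 412 FPKM, and in siPdgfra at 1251 and 1033. Both siSbp2l libraries were below every other Day3 library, whereas the siPdgfra libraries lay within the range of the controls. The share of all genes separated in this way was not counted. In siSbp2l against the mean of the 4 controls, 53.4% of all genes had a limma adjusted p under 0.05.

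Ptgds fell in siSbp2l by 1.83 on the log2(FPKM + 1) scale against the mean of the 4 controls (SE 0.18, limma adjusted p = 1.998e-05). On the linear scale the mean of the controls was 3.65-fold above siSbp2l. It was 1 of 2 members above the filter and the only one tested here, and 7.19% of all genes were called, 363 higher and 475 lower. The median of all genes in this comparison was 0.15, and median-ratio scaling, which moves it to 0.00, gave −1.995 for Ptgds and 214 genes higher and 616 lower. The fall was called against each control, with values from −1.58 (NC siRNA #2, limma adjusted p = 0.000368) to −2.28 (mock, limma adjusted p = 3.48e-05), and 3.23% of genes were called in the same direction against all 4. Even so, siSbp2l cells had 69.8-fold more Ptgds than Day0 cells.

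In siPdgfra, Ptgds was −0.27 from the mean of the controls (95% interval −0.66 to 0.13, limma adjusted p = 0.22), where 7.99% of genes were called. Against the single controls it was −0.72 from mock (limma adjusted p = 0.0249, under 2-fold), −0.26 from NC siRNA #1, −0.07 from non-treated and −0.02 from NC siRNA #2, and so was not among the 3.61% of genes called against all 4. The direct comparison of the knockdowns gave −1.56 for siSbp2l minus siPdgfra (SE 0.22, limma adjusted p = 0.000248), where 13.7% of genes were called. Alox5 was thus low in both knockdowns, and Ptgds was lower in siSbp2l than in siPdgfra.

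Among the controls, Ptgds was highest in mock, and the other 3 control groups and siPdgfra followed with neighbours that overlapped. Mock and non-treated differed by 0.65 (SE 0.22, limma adjusted p = 0.228), and the non-treated libraries themselves differed by over 1.5-fold. Without non-treated replicate 1 that difference was 1.03 (limma adjusted p = 0.000311) and was called. Of the siRNA controls against mock, NC siRNA #1 differed by −0.46 (limma adjusted p = 0.176) and NC siRNA #2 by −0.70 (limma adjusted p = 0.0652), and NC siRNA #2 differed from NC siRNA #1 by −0.23 (limma adjusted p = 0.527).

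**Figure D2:**
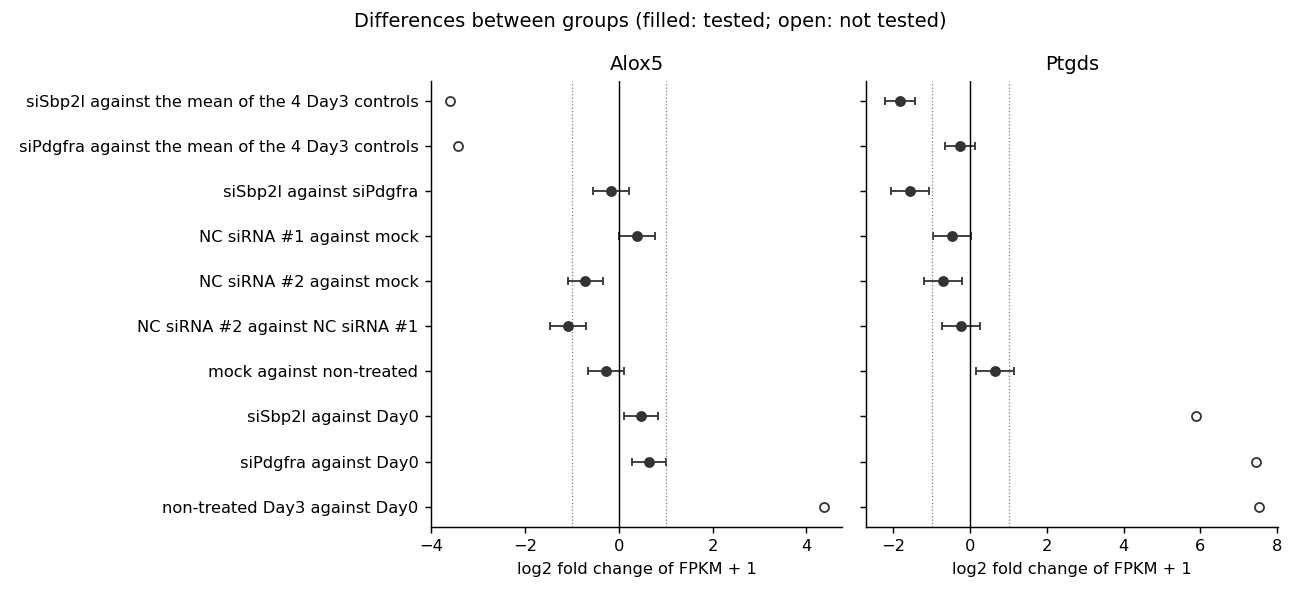
Differences of Alox5 (left) and Ptgds (right) between groups as log2 fold changes of FPKM + 1, with 95% intervals for the tested ones (filled) and no interval for those given as a description (open), and dotted lines at a 2-fold change. The Ptgds values against the mean of the 4 controls are −1.83 for siSbp2l and −0.27 for siPdgfra, and the Alox5 value for NC siRNA #2 against NC siRNA #1 is −1.09.

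OL markers moved with both genes. The summed level of 10 OL markers was 864 to 980 FPKM at Day0, 7033 to 10355 in the control libraries, 2925 to 3113 in siSbp2l and 5295 to 6099 in siPdgfra. The mean of the 4 controls was 2.97-fold above siSbp2l for this sum, beside 3.65-fold for Ptgds and 37.1-fold for Alox5. For siPdgfra the same ratios were 1.57, 1.23 and 25.8. The summed level of 5 OPC markers, Pdgfra among them, was 742 to 787 FPKM at Day0, 228 to 483 in the controls, 435 to 454 in siSbp2l and 102 to 113 in siPdgfra. Lhfpl3, the highest of them, rose with differentiation by 1.55 (limma adjusted p = 6.1e-05), while Pdgfra, Cspg4 and Ptprz1 fell. Without Lhfpl3 the sum was 672 to 713 FPKM at Day0 and 90.7 to 195 in the controls. It was then 268 to 272 in siSbp2l and 60.1 to 65.0 in siPdgfra, where Pdgfra is the siRNA target. In bulk cultures fewer cells of a type and less RNA per cell cannot be told apart, and the part of these shifts in the results was not tested.

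Markers of other cell types were also followed. Of 16 microglia and macrophage markers 14 stayed under 1 FPKM in every library, and Tyrobp, C1qb, C1qc and Ctss were at 0 throughout. P2ry12 was the highest of them, and without it the sum was 0.324 to 2.29 FPKM. With it the sum was 10.365 to 10.376 in NC siRNA #1 and 6.89 to 8.36 in siPdgfra, and between 1.97 and 5.35 in the other libraries. The 8 mast cell and neutrophil markers summed to at most 0.47 FPKM, with Cma1, Mcpt4, Cpa3, S100a9 and Camp at 0. The 9 markers of meningeal fibroblasts summed to at most 0.393 FPKM and the 4 of the choroid plexus to at most 0.294, beside Ptgds levels of 359 FPKM or more at Day3, and Slc6a13 and Folr1 were at 0. The 6 endothelial markers summed to 0.637 to 1.93 FPKM, mostly Kdr, with Cldn5 and Cdh5 at 0. The 7 astrocyte markers, led by Gfap, summed to 34.7 to 37.1 FPKM at Day0, 76.7 to 137 in the controls, 93.2 to 93.3 in siSbp2l and 39.0 to 39.9 in siPdgfra. Their part in the results was not tested.

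The partners of Alox5 and Ptgds were scarce. Alox5ap, Ltc4s, Ptges, Ptgs1 and Ptgs2 stayed under 1 FPKM in all 14 libraries, did not pass the filter and were not tested. Intervals and floors given for them cover counting error only.

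Alox5ap, the partner that presents arachidonic acid to the Alox5 enzyme, had 59 fragments in all 14 libraries together. It was at 0 in both Day0 libraries, which allows up to 0.111 and 0.156 FPKM at 3 fragments. The 8 control libraries held 1 to 5 fragments each, at 0.0563 to 0.535 FPKM. The siSbp2l libraries had 0.635 and 0.378 FPKM (11 and 7 fragments), and the siPdgfra libraries 0.657 and 0.527 (12 and 9 fragments). The highest values lay in the knockdowns, where Alox5 was low, but the shallow NC siRNA #2 replicate 2, at 0.535 FPKM from 3 fragments (exact Poisson 95% interval 0.11 to 1.56), overlapped both of them.

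Ltc4s was listed at 0 in all 14 libraries, and a floor of 3 fragments there corresponds to 0.161 to 0.778 FPKM. Ptges had 1 fragment, in siSbp2l replicate 2, and was at 0 in the other 13 libraries. Ptgs1 had 2 fragments, 1 each in a mock and an NC siRNA #1 library. At this depth neither the Ptges nor the Ptgs1 mRNA was distinguishable from 0.

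Ptgs2, the inducible cyclooxygenase, was low in every group, with 246 fragments in all. It was at 0.0763 and 0.0429 FPKM at Day0, the lowest pair. Its levels were 0.373 and 0.249 in non-treated, 0.116 and 0.128 in mock, 0.269 and 0.215 in NC siRNA #1, and 0.222 and 0.368 in NC siRNA #2. In siSbp2l it was at 0.143 and 0.145 FPKM, within the range of the controls, and in siPdgfra at 0.451 and 0.326. The siPdgfra values overlapped those of the non-treated and NC siRNA #2 libraries, and neither knockdown lay outside the controls as a pair.

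**Figure D3:**
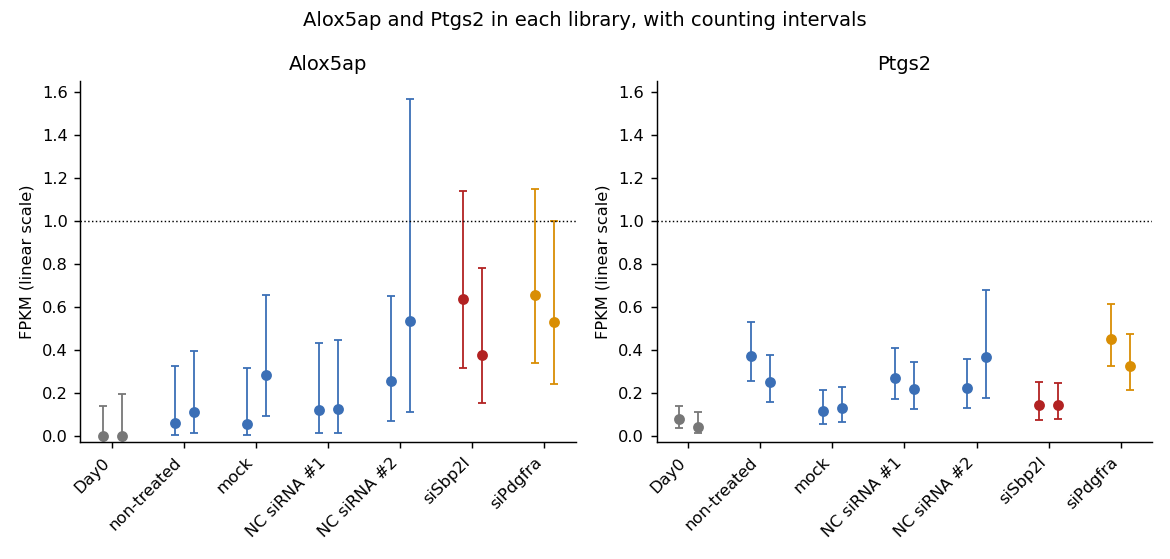
FPKM of Alox5ap (left) and Ptgs2 (right) in each of the 14 libraries on a linear axis, with exact Poisson 95% intervals for counting error and a dotted line at the filter of 1 FPKM. Every point is under the line, Alox5ap reaches 0.657 in siPdgfra, and the widest Alox5ap interval is that of the shallowest library.

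The rest of the eicosanoid pathway was followed in 5 lists with 76 genes, of which 32 reached 1 FPKM in at least 2 libraries, 43 were under 1 FPKM in every library and 10 were at 0 in all. The first list holds 25 genes that release arachidonic acid or put it back into lipids. With differentiation (non-treated against Day0), 3 of 11 tested genes were called higher and 1 lower, beside 11.4% and 15.2% of all genes. The list median was −0.13 and that of all genes −0.12. A further gene, Pla2g4c, passed the filter only through Day0 and is not counted. Acsl3, an acyl-CoA synthetase and the most abundant gene of the list, rose by 2.31 (SE 0.11, limma adjusted p = 8.275e-09), from 41.2 to 208 FPKM. Mgll, which cleaves monoacylglycerols including the endocannabinoid that yields arachidonic acid, rose by 2.08 and Acsl1 by 1.63. Acsl4, the acyl-CoA synthetase that prefers arachidonic acid, fell by 1.69 (SE 0.19, limma adjusted p = 1.461e-05), from 35.2 to 10.6 FPKM. Pla2g4c, a member of the cytosolic phospholipase family, was at 1.85 FPKM at Day0 and 0.142 in non-treated.

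In siSbp2l, 1 of 11 tested genes of this list was called, Acsl1 at −1.004 (SE 0.07, limma adjusted p = 2.281e-06), with a list median of 0.14 beside 0.15 for all genes. This is 1 gene beside 7.19% of all genes, and with a pseudocount of 5 none was called (Acsl1 −0.84). The call was also lost, at values from −0.9996 to −0.99, without any 1 of non-treated replicate 2, mock replicate 1, NC siRNA #1 replicate 1 and NC siRNA #2 replicate 1. With median-ratio or upper-quartile scaling 3 were called, all lower. Acsl3 at −0.88 (limma adjusted p = 2.61e-05) and Mgll at −0.995 (limma adjusted p = 0.00016) stayed just under 2-fold. In siPdgfra none was called (median −0.27, all genes 0.09). Acsl1 was at 7.83 FPKM at Day0, 25.1 to 31.6 in the control groups, 13.5 in siSbp2l and 19.5 in siPdgfra.

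Of the 15 other lipoxygenase and leukotriene genes 5 were tested. Lta4h, the hydrolase that makes leukotriene B from the unstable product of the Alox5 enzyme, was the most abundant, at 28.0 FPKM ± 2.81 (SD, n = 2) at Day0 and 48.2 to 55.3 in the control groups. It was at 35.3 ± 3.46 in siSbp2l and 81.1 ± 8.07 in siPdgfra. The differences from the mean of the controls were −0.57 (limma adjusted p = 0.00029) and 0.61 (limma adjusted p = 0.000167), both under 2-fold. The knockdowns differed from each other by −1.18 (SE 0.10, limma adjusted p = 1.054e-05), which was called, beside 13.7% of all genes. Cotl1, an actin-binding protein that also binds the Alox5 enzyme, fell from Day0 to non-treated by 1.15 (limma adjusted p = 0.00148) and was higher by 1.29 in siPdgfra (SE 0.19, limma adjusted p = 0.000367). In siPdgfra Cotl1 was not called against all 4 controls. No other gene of the list was called in these comparisons. Of the 5, 1 was called lower with differentiation and 1 higher in siPdgfra, beside 15.2% and 3.97% of all genes. The list medians were 0.34 for differentiation, −0.26 for siSbp2l and 0.31 for siPdgfra, beside −0.12, 0.15 and 0.09 for all genes. Ggt1 passed the filter only through NC siRNA #2, at 1.45 FPKM. With the filter at 5 FPKM, which leaves Ggt1 out, the list medians were 0.11, 0.06 and 0.46, beside −0.14, 0.16 and 0.11. The differentiation call of Cotl1 was lost without Day0 replicate 1 (−0.98) or non-treated replicate 2 (−0.66). With mock in place of non-treated, no gene of the list was called against Day0.

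Of 14 other prostanoid synthase, breakdown and transport genes 8 were tested against Day0 and 7 among the Day3 groups. Fam213b, now named Prxl2b, whose product makes a prostaglandin F compound, rose by 3.28 with differentiation (SE 0.18, limma adjusted p = 3.505e-08), from 1.85 to 27.4 FPKM. Ptgr2, a reductase that inactivates prostaglandins, rose by 1.22 (SE 0.08, limma adjusted p = 1.35e-07). In siSbp2l they were at −0.86 (limma adjusted p = 0.00084) and −0.77 (limma adjusted p = 1.174e-05), under 2-fold. Akr1b3, an aldose reductase that can also reduce prostaglandin H, was called lower with differentiation (−1.18, limma adjusted p = 0.0463) and higher in siSbp2l (1.18, limma adjusted p = 0.0202). Its replicates differed widely, as at 16.3 FPKM ± 10.8 (SD, n = 2) in mock. The differentiation call was lost with either other scaling, the replicate block (limma adjusted p = 0.0561), no filter, a fit of only the libraries compared, a pseudocount of 5 (−0.91) or mock in place of non-treated (−0.49). It was also lost on leaving out any 1 of 8 libraries, with the smallest values without Day0 replicate 1 (−0.75) and non-treated replicate 2 (−0.64). The siSbp2l call was lost with a pseudocount of 5 (0.93) and without either siSbp2l library (limma adjusted p = 0.125 and 0.0964). Ptges3, a co-chaperone also described as a prostaglandin E synthase and the most abundant gene of the list, was at 173 FPKM at Day0 and 80.1 to 100.003 in the controls, and was called in neither knockdown. The list medians were −0.32 for differentiation, −0.06 for siSbp2l and 0.25 for siPdgfra, beside −0.12, 0.15 and 0.09 for all genes. With differentiation 2 of 8 tested genes were called higher and 1 lower, beside 11.4% and 15.2% of all genes. In siSbp2l 1 of 7 was called and in siPdgfra none, beside 7.19% and 7.99% of all genes. Hpgds, the other prostaglandin D synthase gene, stayed at or under 0.185 FPKM, and was picked out after its values were seen.

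The epoxygenase branch, in which cytochrome P450 enzymes oxidise arachidonic acid, had genes that rose in siPdgfra. Of its 7 genes 5 passed the filter, Cyp2j12 only through siPdgfra. Of the other 4, 2 were called, both higher and each against all 4 controls, beside 7.99% of all genes called against the mean of the controls and 3.61% against all 4. The median of these 4 was 0.71, beside 0.09 for all genes. With a pseudocount of 5 only Cyp2j6 was called. Cyp2j6 was at 24.5 to 33.4 FPKM in the control groups and at 69.02 ± 0.222 (SD, n = 2) in siPdgfra, a difference of 1.27 (SE 0.09, limma adjusted p = 2.623e-06). Cyp2j9 was at 3.32 to 5.56 FPKM in the control groups and at 13.3 ± 0.253 in siPdgfra, a difference of 1.43 (SE 0.10, limma adjusted p = 2.491e-06). Cyp2j12 was at or under 0.174 FPKM in the control groups and at 1.73 ± 0.207 in siPdgfra, a difference of 1.38 given as a description. These are related genes of 1 subfamily, between which the counting may have split fragments. None was called in siSbp2l (list median 0.18) or with differentiation (−0.16). Cyp2j6 and Cyp2j9 were called lower in siSbp2l than in siPdgfra (−1.09 and −1.20), beside 13.7% of all genes. With a pseudocount of 5, Cyp2j9 was no longer called in that comparison (−0.84).

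Of the 15 receptor genes only 2 were tested. Gpr17, a receptor of early differentiating OLs that is related to the cysteinyl leukotriene receptors and whose ligands are debated, was at 52.5 FPKM at Day0, 174 to 211 in the control groups, 93.6 ± 8.28 (SD, n = 2) in siSbp2l and 167 ± 15.5 in siPdgfra. It rose with differentiation by 1.99 (SE 0.13, limma adjusted p = 9.539e-08) and fell in siSbp2l by 1.07 (SE 0.09, limma adjusted p = 9.166e-06). That fall was not called against the mean of the NC siRNA groups alone, or without siSbp2l replicate 1 (−0.98). Gpr17 was also not called against all 4 controls in siSbp2l. In siPdgfra the difference was −0.25 (limma adjusted p = 0.0452), under 2-fold. Of all genes, 26.6% were called with differentiation, 7.19% in siSbp2l and 7.99% in siPdgfra against the mean of the controls. The receptor genes Ptgdr, Ptger2 and Cysltr1, picked out after their values were seen, were at 0 in all 14 libraries.

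**Figure D4:**
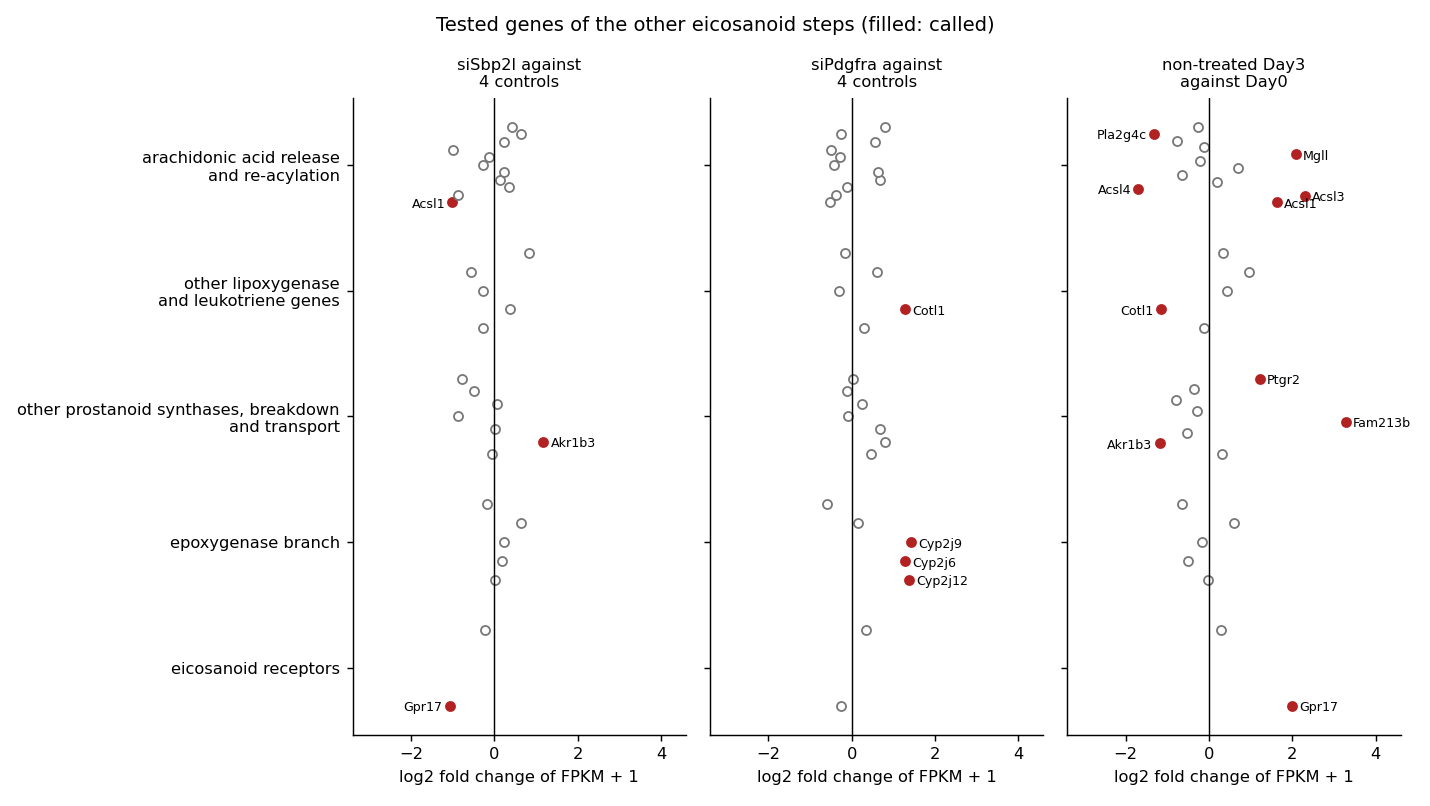
Log2 fold changes of FPKM + 1 for the tested genes of the 5 lists (vertical position within a list only separates the points), for siSbp2l and siPdgfra against the mean of the 4 controls and for non-treated Day3 against Day0, with called genes filled and named. The 3 Cyp2j genes are called only in the siPdgfra panel (Cyp2j12, like Pla2g4c in the Day0 panel, passed the filter only through the group where it is high), and Fam213b has the highest value, 3.28, in the Day0 panel.

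The genes with the profiles most like Alox5 and Ptgds were ranked by Pearson's r of log2(FPKM + 1) over the 14 libraries, among 6420 tested genes whose group means spanned at least 1 log2 unit. The r values describe libraries that share 7 group means. Of the 5 highest for Alox5, the 4 reported here were Eml2 (0.985), a microtubule-associated protein, Nt5e (0.982), the ectoenzyme that makes adenosine, Plcxd2 (0.971) and Hs6st1 (0.970), a heparan sulfate sulfotransferase. For Ptgds the 5 highest were Gm98 (0.995), an earlier symbol of the myelin regulatory factor Myrf, Ctsa (0.993), a lysosomal carboxypeptidase, Tmcc2 (0.990), Pacs2 (0.989) and Clip3 (0.988). Alox5 and Ptgds had an r of 0.676 with each other.

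The lists differed in what siPdgfra did. Hs6st1, for example, was at 13.3 FPKM at Day0, 87.2 to 174 in the control groups, 22.7 in siSbp2l and 38.7 in siPdgfra. Eml2 was at 0.161 FPKM at Day0, 2.29 to 3.96 in the control groups, 0.252 in siSbp2l and 0.18 in siPdgfra. The 4 genes like Alox5 had siPdgfra values from −1.84 to −1.29 against the mean of the controls and siSbp2l values from −2.395 to −1.29. Gm98 was at 6.01 FPKM at Day0, 159.8 to 249.9 in the control groups, 87.4 in siSbp2l and 158 in siPdgfra. The 5 genes like Ptgds had siPdgfra values from −0.63 to 0.11 and siSbp2l values from −1.36 to −0.31. These ranges follow from the choice of the genes by likeness and were not tested.

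**Figure D5:**
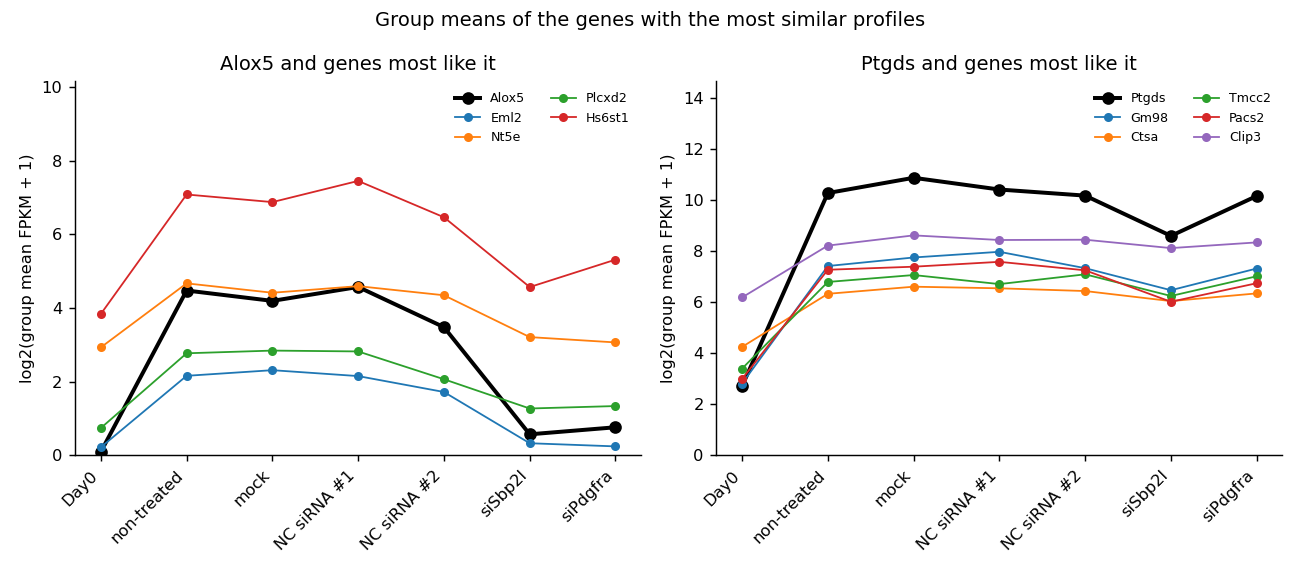
Group means as log2(FPKM + 1) of Alox5 (left) and Ptgds (right) in black with the genes of highest r that are reported here in colour (4 and 5 genes), over the 7 groups. The lines on the left drop in both knockdowns, and those on the right drop in siSbp2l and are back near the controls in siPdgfra, except Pacs2 at −0.63.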

How the data were processed

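mRNA was measured in 14 libraries of 7 groups. The authors processed paired-end reads with OmicSoft ArrayStudio on mm10 (aligner, counter and their settings not given in the sources used here) and deposited FPKM, so the count test of the study (DESeq2) could not be used. A deposited table of the authors' fold changes and p-values served only for gene positions and exon lengths. Non-treated columns carry only their day. Depth came from FPKM multiplied by exon length, where 88.8% to 92.5% of low values (from 0.2 FPKM to 50 fragments, single transcripts) were whole within 0.1.

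Genes with an FPKM of at least 1 in at least 2 libraries were tested on log2(FPKM + 1), unscaled, with limma 3.58.1 (R 4.3.3; trend, robust), two-sided, 1 mean per group. The 12 Day3 libraries formed 1 fit (11650 genes, 6 residual degrees of freedom) and all 14 another (11874 genes). This scale understates changes of low genes. Genes were called at a fold of at least 2 and a Benjamini-Hochberg adjusted p under 0.05. Replicates were independent cultures by the study's methods. The test was tested on simulated data.

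Members, lists and markers were chosen with earlier results of these data known. Named genes were the members, list genes called against all 4 controls or with differentiation (up to 4 per list and direction), the most abundant gene per list, and 5 genes per profile, of which 1 is not reported here. Alternatives were 11 settings and leaving out each of 14 libraries. Python 3.11.15, pandas 2.3.3, SciPy 1.17.1 and matplotlib 3.10.9 were used.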

Additional observations from a re-analysis of the deposited data

Results flagged for a closer look

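Ptgds responded differently to the knockdowns in a direct comparison: siSbp2l minus siPdgfra was −1.56 on the log2(FPKM + 1) scale (limma adjusted p = 0.000248), from 359 and 412 FPKM against 1251 and 1033. Alox5 differed between the non-targeting siRNAs, with NC siRNA #2 minus NC siRNA #1 at −1.09 (limma adjusted p = 0.00144), from 9.87 and 10.4 FPKM against 22.4 and 23.1. Among the other pathway genes, siSbp2l minus siPdgfra was also called for Cyp2j6 (−1.09), Cyp2j9 (−1.20), Lta4h (−1.18) and Cyp2j12 (−1.36). Cyp2j12 passed the filter only through siPdgfra. By list, 1 of 5 tested lipoxygenase and leukotriene genes and, without Cyp2j12, 2 of 4 epoxygenase genes were called. None of 11 release, 7 prostanoid and 2 receptor genes was called, beside 13.7% of all genes. All groups held 2 libraries, so no library could be tested for standing apart from its group.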

How the results depend on the processing

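Of the 14 differences of Alox5 or Ptgds that were tested, recomputed under 11 planned settings, none changed direction while called. With a pseudocount of 0.1, 1 member in place of 0 was called against Day0 in siSbp2l (Alox5 1.82) and in siPdgfra (Alox5 2.16). The Alox5 differences between the knockdowns and of each knockdown from Day0, counted among these 14, use knockdown values that chose Alox5. Alox5 was under 1 FPKM in every library of those comparisons, so their calls and adjusted p-values are no independent evidence. With a pseudocount of 5, 0 in place of 1 was called for NC siRNA #2 against NC siRNA #1 (Alox5 −0.87). Leaving out 1 library changed 1 of the calls: for mock against non-treated 0 to 1 members were called and Ptgds ran from 0.26 to 1.03, the highest without non-treated replicate 1, where 113 genes in place of 1 were called. The cause was not tested. Leaving out a library moved Ptgds in siSbp2l against the controls between −1.93 and −1.73, and Alox5 in NC siRNA #2 against NC siRNA #1 between −1.13 and −1.06.

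Over all genes, a pseudocount of 0.1 called 1376 in place of 838 in siSbp2l and 1527 in place of 931 in siPdgfra against the mean of the 4 controls, 729 in place of 372 for NC siRNA #1 and 482 in place of 235 for NC siRNA #2 against mock, 775 in place of 465 between the NC siRNAs, and 7 in place of 1 for mock against non-treated. A pseudocount of 5 called 392, 382, 113, 71, 196 and 0 in these comparisons, 694 in place of 1592 between the knockdowns, and against Day0 1915 in place of 3157 (non-treated), 1527 in place of 2708 (siSbp2l) and 1961 in place of 3292 (siPdgfra). For mock against non-treated, a fit of only those libraries gave 0, as did leaving out mock replicate 2, and leaving out non-treated replicate 2 gave 5.

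Groups share replicate numbers, but the differences between same-numbered libraries correlated at over 0.1 in only 4 of 21 pairs of groups (r from −0.38 to 0.473), so the numbers were not taken as pairs. With the replicate block, Ptgds in siSbp2l against the controls stayed at −1.83 (limma adjusted p = 5.271e-05) and no call of a member changed, while among the named list genes Akr1b3 lost its differentiation call. Mock in place of non-treated against Day0 was added after the data were seen. FPKM below about 1 rests on few fragments, which limits what can be said of Alox5 in the knockdowns and of the 5 untested members.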
